A study of Mus musculus with 36 samples.

Results

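Trem2 and 9 further genes that mark lipid-associated macrophages were followed through a year of chemical liver injury in mice. The 10 genes were chosen by symbol: Trem2, Cx3cr1, Itgax, Gpnmb, Cd9, Cd63, Spp1, Lpl, Mmp12 and Ctsd. They are 10 of 32544 gene symbols in the count table, and all 10 were among the 15338 genes with enough counts to be tested.

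Lipid-associated macrophages gather around dying, lipid-laden cells and around scars in injured liver, where they take up lipids and debris. TREM2 is a surface receptor for lipids and apoptotic cells that signals through the adaptor TYROBP (DAP12) and the kinase SYK. The other genes encode proteins of these cells or of their lysosomes, but none is restricted to macrophages: Spp1 and Cd9 are also made by bile duct cells, Lpl by adipocytes, Gpnmb by melanocytes, and Cd9, Cd63 and Ctsd by many cell types.

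RNA was sequenced from the whole liver of 36 C57BL/6N males, aged 8 to 10 weeks at the start, in 6 groups of 6. Carbon tetrachloride (CCl4), a solvent that hepatocytes convert into toxic radicals, was injected into the peritoneum at 1 g/kg of body weight in olive oil, with 2 injections a week, for 2, 6 or 12 months. Oil controls received olive oil alone in the same way for 2 or 12 months. The last group is titled month 0 control, while its treatment label reads olive oil. The 36 samples hold no oil group at month 6, so month 6 CCl4 was set against the average of both oil groups (log scale). Tissue was collected 6 days after the final dose. All mice were of 1 sex and strain, and CCl4 mice also received the oil.

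Libraries held 19403247 to 28917545 counts. Levels are CPM, read counts scaled to a common library total, after TMM scaling, which aligns the libraries by their typical gene. A gene was called, and is said to rise or fall, when its Benjamini-Hochberg adjusted p over all tested genes was below 0.05 in edgeR's quasi-likelihood test of the 36 libraries. Fold changes are log2 values with their standard error (SE). Without TMM, by library totals alone, the median gene moved by 0.20 at month 2, 0.31 at month 6 and 0.56 at month 12, so changes are relative to the median gene. The labels do not say how the samples of a group were kept or handled, so p-values measure the spread between these samples. In whole liver, fewer cells of a type and less RNA per cell cannot be told apart. Some libraries stood apart by transcripts of other cells or tissues. Genes that hepatocytes also carry (Fn1, Krt8, Car3 and Fabp2) were left out of marker sums where stated, a choice made after the sums were seen. Month 6 CCl4 replicate 2 had the highest monocyte sum of its group without Fn1 (178 CPM, next 54.9). Month 2 CCl4 replicate 1 was high in neutrophil markers (235 CPM, next 34.3) and replicate 6 in bile duct markers (73.0 CPM, next 16.4), while month 12 oil replicate 2 was high in mesothelial markers without Krt8 (130.4 CPM, next 27.3). Pancreas markers reached 20614 CPM in month 2 CCl4 replicate 5 (next 3449), 11071 CPM in month 2 oil replicate 2 (next 6879) and 16100 CPM in month 12 oil replicate 4 (next 6096). Intestinal markers without Fabp2 reached 103.8 CPM in month 2 CCl4 replicate 6 (next 5.56) and 160.3 CPM in month 12 CCl4 replicate 1 (next 73.9).

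Sequence upstream of the genes is shown first for the members with a match to TGANTCA or CACGTG, the 2 rarest of the letter strings searched for, and for Gpnmb, which moved the furthest between control groups. RefSeq promoters on GRCm38.p6 (mm10) were found for 9 of the 10 members. Lpl had no entry. The 250 bases before each start were searched on both strands for TGANTCA (the AP-1 site), CACGTG (the E-box core read by TFEB, TFE3 and MITF), CATGTG (another E-box form) and GAGGAA (the ETS core of PU.1 sites); these motifs do not contain one another. Each sequence reads 5′ to 3′ in the direction of the gene, and capitals mark every match.
Trem2, chr17:48346151-48346400, plus strand: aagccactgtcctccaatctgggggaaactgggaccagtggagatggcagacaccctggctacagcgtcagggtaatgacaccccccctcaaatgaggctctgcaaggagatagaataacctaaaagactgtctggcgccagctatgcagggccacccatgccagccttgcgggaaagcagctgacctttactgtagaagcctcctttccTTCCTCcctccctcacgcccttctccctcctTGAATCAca
Itgax, chr7:128129300-128129549, plus strand: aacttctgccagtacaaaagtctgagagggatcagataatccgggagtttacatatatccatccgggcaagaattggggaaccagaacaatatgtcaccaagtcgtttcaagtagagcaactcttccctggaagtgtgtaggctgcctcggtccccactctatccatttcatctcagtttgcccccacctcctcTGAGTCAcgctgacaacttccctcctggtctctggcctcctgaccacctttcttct
Mmp12 (one of its starts), chr9:7347124-7347373, plus strand: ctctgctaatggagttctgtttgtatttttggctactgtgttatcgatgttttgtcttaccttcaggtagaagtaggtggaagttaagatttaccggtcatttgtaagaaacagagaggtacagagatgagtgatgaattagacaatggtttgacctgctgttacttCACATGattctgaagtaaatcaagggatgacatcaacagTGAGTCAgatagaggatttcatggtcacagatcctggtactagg
Ctsd, chr7:142387828-142388077, minus strand: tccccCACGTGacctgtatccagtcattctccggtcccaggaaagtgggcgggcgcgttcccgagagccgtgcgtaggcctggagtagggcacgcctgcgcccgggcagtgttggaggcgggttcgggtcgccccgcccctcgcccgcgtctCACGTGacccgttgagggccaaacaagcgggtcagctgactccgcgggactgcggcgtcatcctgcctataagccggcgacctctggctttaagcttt
Gpnmb, chr6:49036268-49036517, plus strand: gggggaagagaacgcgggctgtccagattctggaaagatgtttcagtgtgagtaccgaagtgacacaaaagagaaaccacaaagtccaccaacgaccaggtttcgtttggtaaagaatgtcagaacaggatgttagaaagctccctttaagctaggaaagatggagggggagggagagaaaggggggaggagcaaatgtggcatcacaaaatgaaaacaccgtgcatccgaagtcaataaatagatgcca
TGANTCA stood upstream of Trem2 (bases 9 to 3 before the start), Itgax (56 to 50) and Mmp12 (44 to 38), and in 6.75% of all 32851 promoter windows of this length. CACGTG stood upstream of Ctsd at 2 places (245 to 240 and 98 to 93) and in 6.02% of windows. CATGTG was found for Cd9 and Mmp12 and in 12.3% of windows, and GAGGAA for Trem2, Cd63, Spp1 and Mmp12 (at its other start) and in 23.3% of windows. The printed Gpnmb window held none of the 4. These matches describe letters only.

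After 2 months of CCl4, 7 of the 10 members rose and none fell, where 7% of all tested genes were called higher and 3.38% lower. At month 6, 9 of the 10 rose, against 7.71% of genes called higher and 3.68% lower. Without month 6 CCl4 replicate 2 it was 8 of 10, with Trem2 at 0.73, Gpnmb at 2.17, Cd63 at 1.14 and Itgax at 1.32, while Spp1 was no longer called. At month 12 all 10 rose, where as many as 25.9% of genes were called higher and 23.2% lower. The median log2 fold change of the members was 1.07, 1.20 and 2.13 at the 3 times, while that of all genes was -0.000166, -0.00158 and 0.0135. The month 6 comparison shares its oil mice with the other 2 comparisons, so the 3 results are not independent. Behind these counts the members did not share 1 course. Gpnmb had its highest mean in month 6 CCl4, with all mice (66.2 CPM) and without replicate 2 (57.0 CPM), while Cd9, Cd63, Spp1, Lpl, Itgax and Cx3cr1 had theirs in month 12 CCl4. Trem2, Mmp12 and Ctsd were also highest at month 6, but only with replicate 2. Without it the highest mean of Trem2 was at month 2 (13.1 CPM, against 11.9 at month 6), as was that of Mmp12 (32.1 against 28.2 CPM), and that of Ctsd was at month 12 (544.5 against 499.6 CPM).

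Some markers of other white blood cells were called higher too. Of all genes, 7% were called higher at month 2, 7.71% at month 6 and 25.9% at month 12. Neutrophil markers were called higher for 7 of 8 genes at month 2 (median 2.42), 5 at month 6 (1.40) and 1 at month 12 (0.74), the last a smaller share than that of all genes. Their sum was 10.8 to 19.4 CPM in month 2 oil and 22.9 to 234.9 CPM in month 2 CCl4. Monocyte markers were called higher for 3 of 8 genes at each time (medians 0.78, 0.79 and 0.67). Without Fn1 they summed to 24.1 to 49.4 CPM in month 2 oil and 47.4 to 158.8 CPM in month 2 CCl4. With Fn1, the full list, the sums overlapped widely, at 730.8 to 1513.4 CPM in month 2 oil and 822.1 to 1199.9 CPM in month 2 CCl4. T and NK cell markers were called higher for 2 of 8 genes at month 2, 3 at month 6 and 5 at month 12 (medians 0.21, 0.46 and 0.99). Of them 1 was called lower at month 2 and 1 at month 6. None of these markers was at 0, and their part in the results was not tested.

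**Figure D1:**
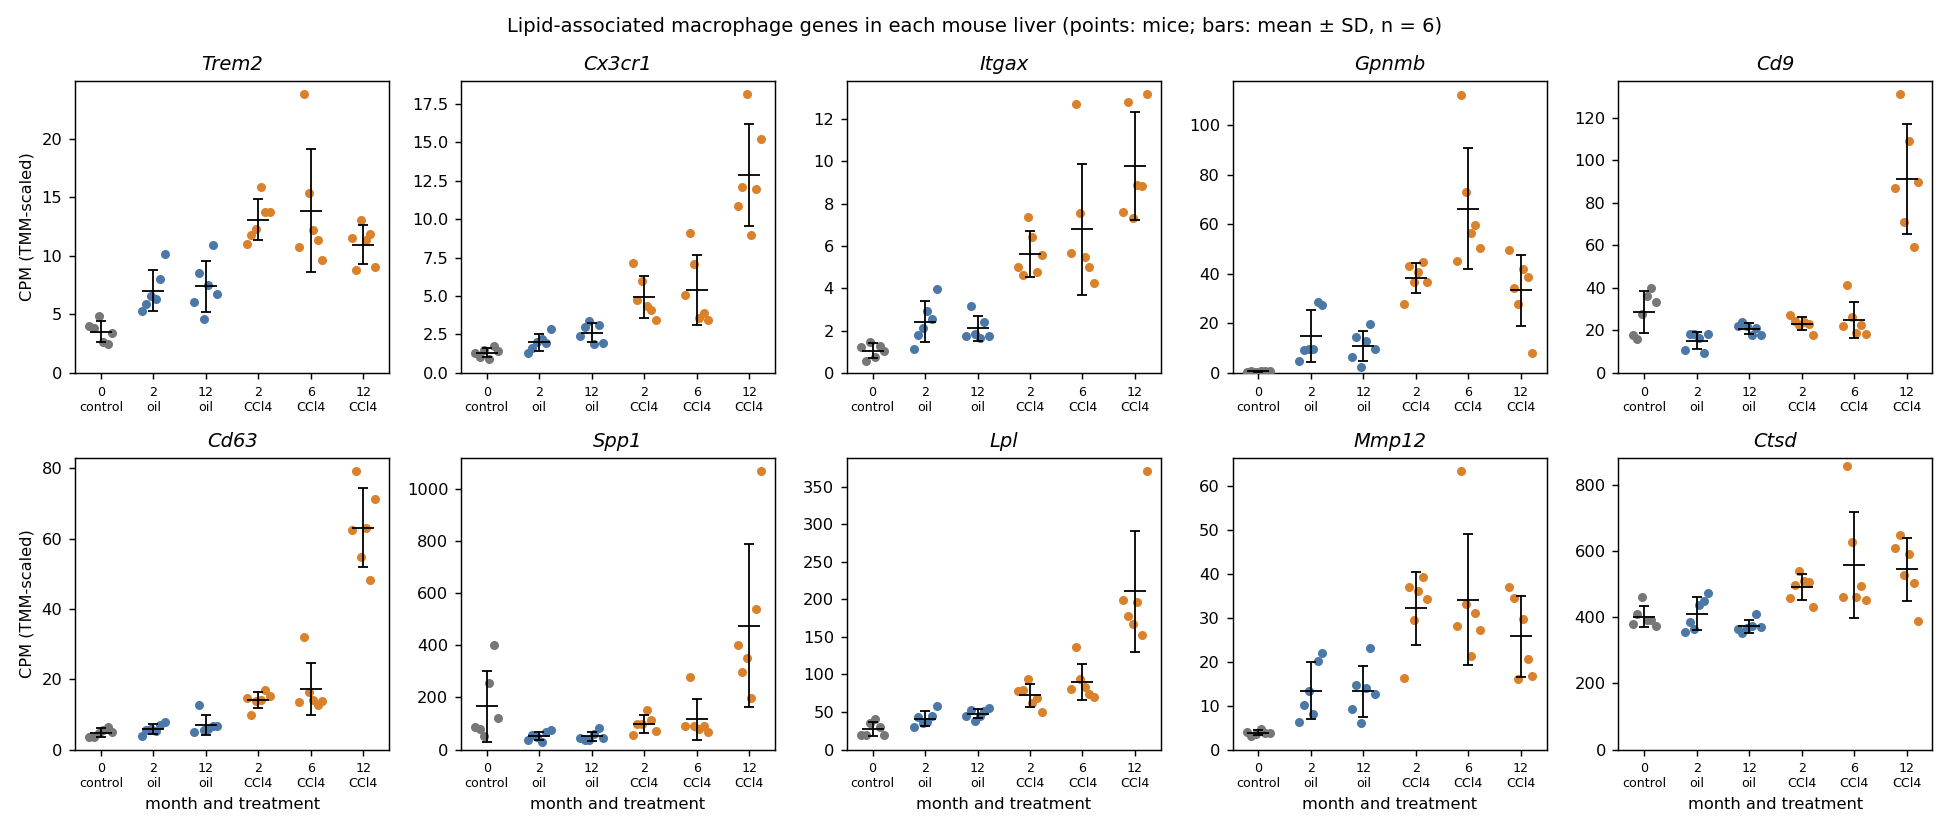
Level of each of the 10 genes in every mouse (points), in CPM after TMM scaling on linear axes from 0, with the mean and SD of each group of 6 as bars. Cd63, Cd9 and Lpl in month 12 CCl4 lie above every mouse of the other groups, while Trem2 and Mmp12 in month 12 CCl4 lie within the range of the other CCl4 groups or below it.

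Among the receptors, Trem2 (mm10, chr17:48346401-48354147) was at 5.31, 6.43 and 10.2 CPM (lowest, median and highest mouse) in month 2 oil and at 11, 13 and 15.9 CPM in month 2 CCl4. The ranges did not overlap, and the rise was 0.89 (SE 0.20, adjusted p = 0.00321). In month 6 CCl4 the values were 9.64, 11.8 and 23.9 CPM, and in month 12 oil 4.58, 7.15 and 10.9 CPM. At month 6, 4 of the 6 CCl4 mice stood above all 12 oil mice, and Trem2 rose by 0.94 (SE 0.17, adjusted p = 0.00019).

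In month 12 CCl4, Trem2 was at 8.83, 11.4 and 13 CPM, and 4 of 6 mice stood above every oil mouse of that month. The rise was 0.56 (SE 0.20, adjusted p = 0.0185), the second smallest of the 10 members at that time. It was not called without month 12 oil replicate 1 (0.49) or replicate 3 (0.44). The difference between the month 12 and month 2 effects, tested as an interaction, was -0.33 (SE 0.28, adjusted p = 0.439) and was not called. Its sign turned with library totals alone (0.02).

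Cx3cr1, the fractalkine receptor that guides monocyte-derived macrophages (chr9:119901616-120069879), was at 1.27, 2.00 and 2.88 CPM in month 2 oil and 3.44, 4.55 and 7.13 CPM in month 2 CCl4. It was at 3.46, 4.50 and 9.11 CPM in month 6 CCl4. At month 12 oil mice held 1.90, 2.69 and 3.36 CPM and CCl4 mice 8.97, 12.0 and 18.1 CPM. The CCl4 mice stood above all oil mice at each of the 3 times. The rises were 1.31 (SE 0.24), 1.23 (SE 0.19) and 2.30 (SE 0.24, adjusted p = 1.47e-09). The Cx3cr1 gene model spans several other genes, among them Wdr48, Gorasp1, Ttc21a, Csrnp1 and Xirp1, and the rule that assigned reads there is not stated in these sources.

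Itgax encodes CD11c, an integrin chain of dendritic cells and of macrophages in inflamed tissue (chr7:128129547-128150657). It was at 1.15, 2.33 and 3.96 CPM in month 2 oil and 4.65, 5.30 and 7.39 CPM in month 2 CCl4. Month 6 CCl4 mice held 4.26, 5.57 and 12.7 CPM. At month 12, oil mice held 1.67, 1.81 and 3.17 CPM and CCl4 mice 7.35, 8.86 and 13.2 CPM. As for Cx3cr1, no CCl4 mouse overlapped the oil mice at any time, and the rises were 1.22 (SE 0.26), 1.59 (SE 0.21) and 2.21 (SE 0.26, adjusted p = 2.3e-08). Summed markers of dendritic cells, which also make CD11c, were at 11.8 to 13.7 CPM in month 12 oil and 15 to 20.1 CPM in month 12 CCl4. Of these 8 genes 5 were called higher and none was at 0, where 25.9% of all genes were called higher. The part of dendritic cells in the result was not tested.

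Gpnmb, a transmembrane glycoprotein of phagosomes and lysosomes (chr6:49036546-49070929), was listed at 4.85, 9.67 and 28.8 CPM in month 2 oil and 28, 38.6 and 44.9 CPM in month 2 CCl4. Of the 6 CCl4 mice 5 stood above all oil mice, and the rise was 1.37 (SE 0.38, adjusted p = 0.0167). It was not called when 4 libraries with signs of other tissues or of blood were omitted (1.35, adjusted p = 0.067), namely replicates 1 and 6 of month 2 CCl4 and replicate 2 of each oil group. That fit kept month 2 CCl4 replicate 5 and month 12 oil replicate 4, the highest of their groups in pancreas markers. Month 6 CCl4 replicate 2 and month 12 CCl4 replicate 1 were kept as well.

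At month 6 Gpnmb reached 45.2, 58.1 and 112 CPM and was the member with the largest rise of that comparison, 2.37 (SE 0.31, adjusted p = 2.02e-06). Every month 6 CCl4 mouse stood above all 12 oil mice and above all month 2 CCl4 mice, a separation seen in 0.0326% of genes. This joint rule was applied for the Gpnmb pattern alone, so the share is a description only. The margin was narrow: the lowest month 6 mouse was at 45.2 CPM and the highest month 2 CCl4 mouse at 44.9 CPM. The difference between these 2 CCl4 groups was not called (0.79, edgeR adjusted p = 0.509). At month 12 the oil mice held 2.54, 11.2 and 19.7 CPM and the CCl4 mice 8.11, 36.4 and 49.5 CPM. The lowest CCl4 mouse, replicate 6, lay among the oil mice, and the other 5 stood above them (1.61, SE 0.38, adjusted p = 0.000753). Melanocyte markers, which share Gpnmb, summed to 7.11 to 12.6 CPM in month 12 oil and 0.779 to 3.19 CPM in month 12 CCl4, with Tyrp1 at 0 in both. Of the 3 tested, Pmel was called higher (1.04), Dct lower (-2.49) and Tyr neither (0.30). Their part in the Gpnmb result was not tested.

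Cd63 is a tetraspanin of late endosomes and of secreted vesicles (chr10:128900989-128912822). It was at 3.73, 5.71 and 7.93 CPM in month 2 oil, 9.81, 14.4 and 16.9 CPM in month 2 CCl4 and 12.7, 14 and 32 CPM in month 6 CCl4. Month 12 oil mice held 4.88, 6.22 and 12.7 CPM, and month 12 CCl4 mice 48.2, 62.7 and 79.3 CPM. At each time the CCl4 mice stood above the oil mice they were compared with. The margin at month 6 was very narrow, with the lowest CCl4 mouse at 12.69 CPM and the highest oil mouse at 12.67 CPM. The rises were 1.25 (SE 0.22, adjusted p = 0.000311) at month 2, 1.41 (SE 0.18, adjusted p = 1.78e-06) at month 6 and 3.16 (SE 0.23, adjusted p = 8.84e-13) at month 12.

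Cd9, a tetraspanin of the cell surface (chr6:125460266-125494791), followed another course. It was at 9.35, 17.2 and 18.3 CPM in month 2 oil, 18, 23.4 and 27.4 CPM in month 2 CCl4 and 18.5, 22.2 and 41.3 CPM in month 6 CCl4. The fitted differences, 0.61 (SE 0.22, adjusted p = 0.0645) and 0.48 (SE 0.18, adjusted p = 0.0832), were not called. The first was called by DESeq2 (0.59), with library totals alone (0.80) and in a fit of the compared groups only (0.61), and the second with library totals alone (0.80) and against month 2 oil alone (0.71). At month 12 the oil mice held 17.7, 21.6 and 24.1 CPM and the CCl4 mice 59.0, 88.3 and 131.2 CPM, a rise of 2.13 (SE 0.22, adjusted p = 1.58e-09) with no overlap. The antisense genes Gm28809 and Gm26728 overlap Cd9, and whether strand entered the counting is not stated.

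Of the secreted members, Spp1 encodes osteopontin, a matrix-binding cytokine (chr5:104435118-104441050). It was at 30.4, 52.6 and 75.0 CPM in month 2 oil and 56.4, 99.8 and 150.9 CPM in month 2 CCl4, where 4 of 6 mice stood above the oil mice and the difference was not called (0.91, SE 0.42, adjusted p = 0.171). In month 6 CCl4 it was at 69.1, 89.3 and 277.9 CPM and was called (1.17, SE 0.35, adjusted p = 0.0237). That call rests on replicate 2, the highest mouse: without it the difference was 0.71 (adjusted p = 0.242). It was also lost against month 2 oil alone (1.14) or month 12 oil alone (1.20), and the month 2 difference was called when only the compared groups were fitted (0.91). At month 12 the oil mice held 35.1, 44.1 and 83.7 CPM and the CCl4 mice 198.6, 374.7 and 1068.2 CPM, with no overlap. That rise, 3.24 (SE 0.45, adjusted p = 4.59e-07), was the largest of the 10 members. Spp1 overlaps the predicted transcript Gm42793 at its 5′ end on the same strand.

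Bile duct cells also make Spp1 and Cd9. Their 8 markers summed to 10.6 to 24.7 CPM in month 12 oil and to 19.2 to 46.7 CPM in month 12 CCl4, where replicate 6 was highest. Of the 7 tested, 3 were called higher at month 12 (median 0.63), where 25.9% of all genes were. None of the 8 markers was at 0. Replicate 6 was also the mouse with the highest Spp1. The part of bile duct cells in the Spp1 and Cd9 results was not tested.

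Lpl, lipoprotein lipase, releases fatty acids from circulating triglyceride (chr8:68880491-68907448). It was at 29.7, 39.5 and 58.3 CPM in month 2 oil, 50.3, 73.3 and 94.1 CPM in month 2 CCl4 and 70.2, 82.3 and 135.9 CPM in month 6 CCl4. Month 12 oil mice held 38.5, 48.3 and 56.0 CPM and month 12 CCl4 mice 152.6, 187.5 and 370.8 CPM, so at months 6 and 12 the groups did not overlap. Lpl rose by 0.81 (SE 0.21, adjusted p = 0.01), 1.01 (SE 0.17) and 2.13 (SE 0.22, adjusted p = 1.06e-09). Adipocyte markers, low in all groups without Car3, which hepatocytes express, then summed to 1.22 to 16.4 CPM in month 12 oil and 0.212 to 3.64 CPM in month 12 CCl4. The 4 tested fell (Adipoq, Plin1, Cfd and Retn), where 23.2% of all genes fell. The part of adipocytes in the Lpl result was not tested.

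Mmp12, the macrophage elastase (chr9:7344381-7369499), was at 6.31, 11.7 and 22.1 CPM in month 2 oil and 16.4, 35.2 and 39.4 CPM in month 2 CCl4. In month 6 CCl4 it was at 21.4, 29.6 and 63.4 CPM. Month 12 oil mice held 6.17, 13.3 and 23.1 CPM and month 12 CCl4 mice 16.1, 25.2 and 37.1 CPM. The groups overlapped at all 3 times, and at month 12 3 of 6 CCl4 mice stood above the oil mice. The rises were 1.27 (SE 0.30, adjusted p = 0.00487), 1.36 (SE 0.24) and 0.96 (SE 0.30, adjusted p = 0.00776). The 3′ end of Mmp12 overlaps Mmp1b on the other strand.

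Ctsd, cathepsin D, is an aspartic protease of lysosomes (chr7:142375911-142388038). It was at 354.2, 412.1 and 473.9 CPM in month 2 oil and 431.1, 501.4 and 540.2 CPM in month 2 CCl4, a difference of 0.26 that was not called (SE 0.13, adjusted p = 0.203) except with library totals alone (0.45). In month 6 CCl4 it was at 451.2, 479.0 and 857.2 CPM. Month 12 oil mice held 351.7, 369.2 and 410.9 CPM and month 12 CCl4 mice 387.4, 559.5 and 648.8 CPM. It rose by 0.51 (SE 0.11, adjusted p = 0.0013) at month 6 and 0.54 (SE 0.13, adjusted p = 0.000565) at month 12, the smallest rise of the 10 members there. The 3′ part of its gene model overlaps Gm49369 on the same strand.

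Ranges of CCl4 and oil mice were fully separate for 4 members at month 2 (Trem2, Cx3cr1, Itgax and Cd63), where 4.64% of all genes were separate in that direction. At month 6, 5 members (Cx3cr1, Itgax, Gpnmb, Cd63 and Lpl) stood above both oil groups, against 0.867% of genes. At month 12 it was 6 members (Cx3cr1, Itgax, Cd9, Cd63, Spp1 and Lpl), against 12.1% of genes. Compared per kilobase of exon, the month 12 CCl4 means were highest for Spp1 (288.9 CPM per kilobase) and Ctsd (231.6) and lowest for Trem2 (2.21) and Itgax (2.04).

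**Figure D2:**
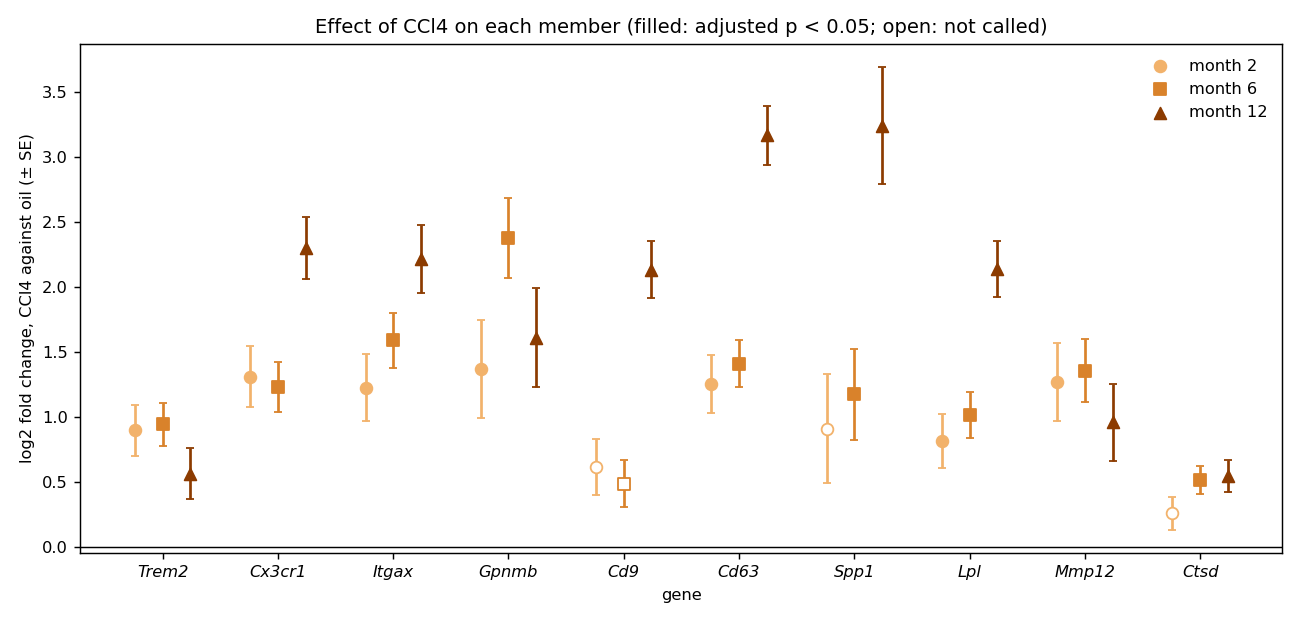
Log2 fold change of CCl4 against oil (points, with SE bars) for each gene at month 2 (circles), month 6 (squares) and month 12 (triangles), filled where called. At month 12 Cd63 (3.16) and Spp1 (3.24) stand highest, and Trem2 (0.56) and Ctsd (0.54) lowest.

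Whether the effect of CCl4 itself differed between months 12 and 2 was tested as an interaction. It was larger at month 12 for 6 of the 10 members and smaller for none, where 11.2% of genes were called higher and 10.1% lower. The 6 were Spp1 (2.33, SE 0.59, adjusted p = 0.00456), Cd63 (1.91, SE 0.31, adjusted p = 3.13e-05), Cd9 (1.52, SE 0.30, adjusted p = 0.000428), Lpl (1.32, SE 0.29, adjusted p = 0.00137), Itgax (0.99, SE 0.36, adjusted p = 0.0469) and Cx3cr1 (0.99, SE 0.33, adjusted p = 0.0286). For the other 4 the fitted difference was -0.33 for Trem2, -0.31 for Mmp12, 0.24 for Gpnmb and 0.29 for Ctsd, none of them called. Itgax was not called in 15 of 24 fits that left out 1 library (0.79 to 1.13 over the 24): replicates 1, 3, 4 or 6 of month 12 oil, 2 or 6 of month 12 CCl4, 1, 2, 4, 5 or 6 of month 2 CCl4, and 3, 4, 5 or 6 of month 2 oil. Cx3cr1 was not called in 4 of them: without replicate 4 (0.91) or 6 (0.91) of month 12 oil, or without replicate 6 of month 2 CCl4 (0.90) or of month 2 oil (0.86). Limma-voom called neither (0.89 and 0.97), and with the replicate number as a block, or with no filter on low counts, Itgax was not called either (0.97 and 1.01). Ctsd was called with library totals alone (0.64).

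Within the CCl4 mice, no member was called from month 2 to month 6 by edgeR, DESeq2 or limma-voom. Of the 10, 1 (Gpnmb, 0.79) had an unadjusted p below 0.05 in edgeR, and 0.502% of all genes were called. From month 6 to month 12, 5 members rose and 1 fell, against 20.6% and 18.6% of genes. Spp1 rose by 2.04 (SE 0.43), Cd63 by 1.88 (SE 0.22), Cd9 by 1.87 (SE 0.22), Cx3cr1 by 1.26 (SE 0.22) and Lpl by 1.23 (SE 0.21). The 12-month mice stood above every 6-month mouse for Cd9, Cd63 and Lpl, against 8.59% of genes.

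Gpnmb fell by 0.99 from month 6 to month 12 (SE 0.37, adjusted p = 0.0324), and 5 of 6 mice at month 12 stood below every mouse at month 6. The call was lost without replicate 2 (-0.76) or 3 (-0.96) of month 6 CCl4, without replicate 3 (-0.93) or 6 (-0.78) of month 12 CCl4, or with library totals alone (-0.81). Trem2 (-0.34, SE 0.19), Mmp12 (-0.40, SE 0.29), Ctsd (-0.04) and Itgax (0.53, SE 0.24) were not called, and Itgax was called without month 6 CCl4 replicate 2 (0.82), with library totals alone (0.70) and by limma-voom (0.58).

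Ratios of 2 members within a library do not depend on library scaling. Counts of Cd63 per count of Trem2 were 0.834 to 1.34 in month 2 CCl4 and 1.07 to 1.43 in month 6 CCl4, and 4.05 to 8.98 in month 12 CCl4, where no mouse overlapped any mouse of the other 5 groups. The ratio was 0.616 to 1.48 in month 12 oil. Counts of Gpnmb per count of Cd63 were 3.33 to 4.72 in month 6 CCl4 and 0.114 to 0.800 in month 12 CCl4. The month 12 values lay below every mouse of the other CCl4 groups. These pairs were chosen after the values were seen, and are given as a description.

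Oil mice differed from the month 0 group in most members. Gpnmb was at 0.436, 0.644 and 0.774 CPM at month 0 (7 to 16 counts) and, as above, at 4.85 to 28.8 CPM after 2 months of oil. It rose by 4.53 (SE 0.51, adjusted p = 7.72e-08), more than any CCl4 effect among the members. Trem2 was at 2.45, 3.61 and 4.84 CPM at month 0, below all month 2 oil mice (1.00, SE 0.21, adjusted p = 0.000482). Mmp12, at 3.05, 3.83 and 4.64 CPM, was below them too (1.80, SE 0.32, adjusted p = 7.78e-05).

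In all, 5 members rose (Gpnmb, Mmp12, Trem2, Itgax by 1.19 and Lpl by 0.59) and 2 fell from month 0 to month 2 oil, against 14.8% and 16.4% of genes. The 2 that fell were Spp1 (-1.66, SE 0.43), at 50.4, 103.2 and 403.0 CPM at month 0, and Cd9 (-0.91, SE 0.22), at 16.1, 30.5 and 40.1 CPM. Cx3cr1 (0.59), Cd63 (0.27) and Ctsd (0.03) were not called. Cx3cr1 was called without month 2 oil replicate 1 (0.70), with library totals alone (0.82) and in a fit of the compared groups only (0.61). The ranges were separate for Gpnmb, Trem2 and Mmp12, against 6.98% of genes. The Lpl call was lost without the 4 libraries named above (0.57), and when any of 5 libraries was left out (month 0 replicates 1, 2 and 6, month 2 oil replicates 5 and 6; 0.47 to 0.72 over all leave-outs). Age, handling and oil cannot be told apart in this comparison. Neutrophil markers summed to 46.6 to 115.7 CPM at month 0 and 10.8 to 19.4 CPM in month 2 oil, and their part in the result was not tested.

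From month 2 to month 12 of oil no member was called by edgeR, DESeq2 or limma-voom, and 1 (Cd9, 0.45) had an unadjusted p below 0.05 in edgeR. Of all genes 0.0717% were called. The members ran from -0.44 for Gpnmb to 0.45 for Cd9, with a median of 0.03. The ranges of the oil groups overlapped between months 2 and 12 for each gene.

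Of 10 markers common to all macrophages 6 rose at month 2, 1 (Adgre1, 0.55) at month 6 and 9 at month 12, where 7%, 7.71% and 25.9% of all genes were called higher. The month 6 share is near that of all genes. Their medians were 0.49, 0.28 and 0.89, smaller than those of the members. Adgre1, which encodes F4/80, rose by 0.70 at month 2 and 0.70 at month 12, and the complement genes C1qa, C1qb and C1qc by 0.95, 0.91 and 0.87 at month 12. The 10 summed to 446.9 to 571.8 CPM in month 12 oil and 788.6 to 1171.8 CPM in month 12 CCl4, and none was at 0.

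Markers of Kupffer cells, the resident macrophages of the liver, did not rise as a list. Of 10, 2 rose and 1 fell at month 2 (median 0.17). At month 6 none rose and 3 fell (median -0.47), and at month 12 1 rose and 3 fell (median -0.44). Among all genes, 7% rose and 3.38% fell at month 2, 7.71% and 3.68% at month 6, and 25.9% and 23.2% at month 12. The Kupffer markers that rose are counted but not named here. Cd163, a haemoglobin scavenger receptor, fell by 2.92 (SE 0.22) at month 6 and by 2.89 (SE 0.23, adjusted p = 9.56e-12) at month 12, and Timd4, a receptor for apoptotic cells, fell by 1.88 and 1.76. Clec4f was not called at month 12 (-0.30, SE 0.20), nor were Folr2 (-0.02) and Vsig4 (0.18). The Kupffer sum was 850.4 to 1189.2 CPM in month 12 oil and 482.6 to 1232.8 CPM in month 12 CCl4.

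To set each member against the macrophage markers, its log2 level in each mouse was taken minus the mean log2 level of the 10 pan-macrophage genes, and compared by a two-sided exact permutation test over mice, called at an adjusted p below 0.05 over these 30 tests. Adjusted over all 15338 genes at each time instead, a choice made after the data were seen, the same 17 were called, and the adjusted p-values given here are those. The smallest p possible is 0.00216 with 6 against 6 mice and 5.39e-05 with 6 against 12. Relative to these markers 17 of 30 differences were called higher and none lower. Of all genes, 0.971% at month 2, 1.34% at month 6 and 2.26% at month 12 were higher at an exact p no larger than the largest called among the members, and 53%, 11.4% and 40% were lower. With the adjustment over all genes, 1.19%, 1.75% and 4.76% were called higher, and 8796, 2477 and 10150 of 15338 genes lower. At month 2 the members called were Cd63 (0.74), Itgax (0.66) and Cx3cr1 (0.66). At month 6 they were Gpnmb (2.26), Itgax (1.12), Mmp12 (1.11), Cd63 (1.07), Spp1 (0.80), Cx3cr1 (0.77), Lpl (0.74) and Trem2 (0.62, adjusted p = 0.0327 by exact permutation).

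At month 12 the genes higher relative to the macrophage markers were Cd63 (2.43), Spp1 (2.38), Cx3cr1 (1.40), Lpl (1.37), Cd9 (1.37) and Itgax (1.28), each at an adjusted exact permutation p = 0.00512 and with all 6 CCl4 mice above all 6 oil mice. Trem2 was not called (-0.13, adjusted exact permutation p = 0.491), nor were Gpnmb (0.91), Mmp12 (0.26) and Ctsd (-0.17). The relative level of Trem2 was -2.19 ± 0.35 in oil and -2.32 ± 0.19 in CCl4 mice (SD, n = 6 each). With Adgre1 alone in place of the 10 markers, Cd63 (0.51) and Itgax (0.43) at month 2 and Trem2 (0.37) and Spp1 (0.55) at month 6 were not called. Without the 4 libraries named above, Cd63 (0.65) and Itgax (0.62) at month 2 were not called, and Itgax was also lost in 6 of 12 fits that left out 1 library (0.53 to 0.79; month 2 oil replicates 1 and 2, month 2 CCl4 replicates 3, 4, 5 and 6). Other single libraries brought calls: at month 2 Gpnmb without month 2 oil replicate 5 (1.40) or 6 (1.34), Lpl without the latter (0.44) and Mmp12 without month 2 CCl4 replicate 1 (1.09), at month 6 Ctsd without month 6 CCl4 replicate 1 (0.34), and at month 12 Gpnmb without month 12 CCl4 replicate 6 (1.23) and Ctsd, as lower, without replicate 2 of that group (-0.27).

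**Figure D3:**
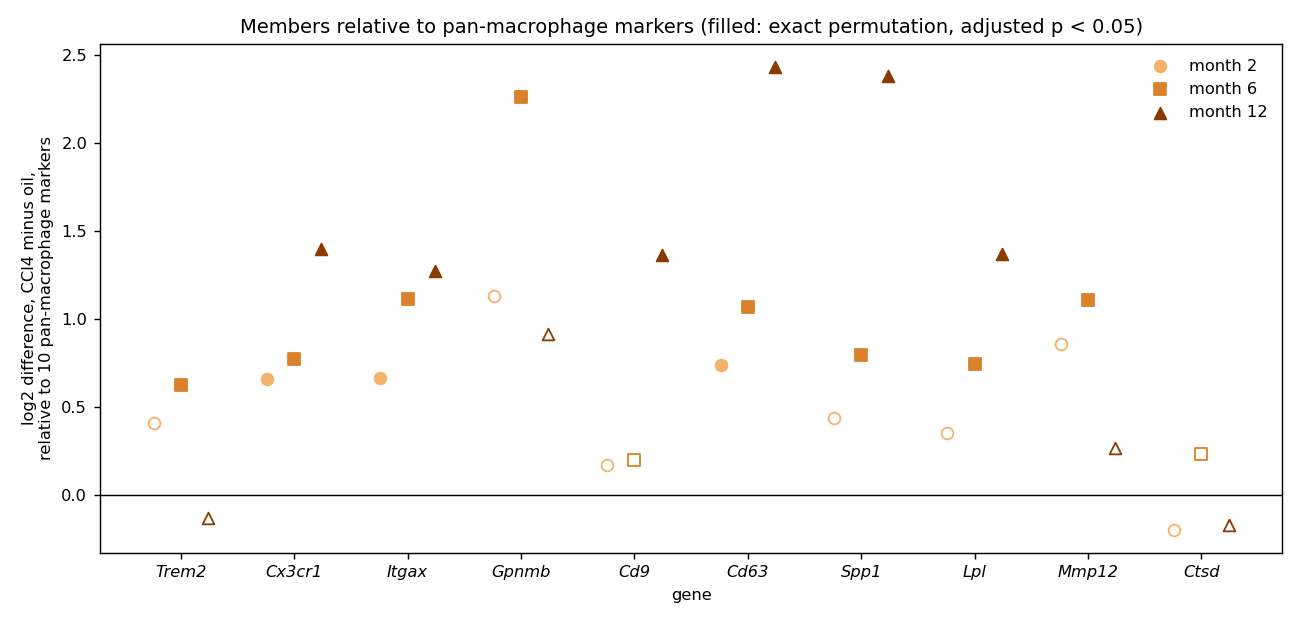
Difference between CCl4 and oil mice in the log2 level of each gene minus the mean log2 level of 10 pan-macrophage markers, at month 2 (circles), month 6 (squares) and month 12 (triangles), filled where called by the exact permutation test. Trem2 stands at 0.62 at month 6 and at -0.13 at month 12, while Cd63 goes from 0.74 to 1.07 to 2.43.

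Most signalling partners of TREM2 rose as well. Of the 17 tested genes of the TREM2 pathway and receptor family, 13 rose at month 2, 10 at month 6 and 13 at month 12 (7%, 7.71% and 25.9% of all genes), and none fell, with medians of 0.77, 0.61 and 0.80 against the medians of all genes given above. Tyrobp, the adaptor of TREM2, rose by 0.79 (SE 0.18), 0.64 (SE 0.15) and 0.80 (SE 0.18), and the kinase Syk by 0.74, 0.83 and 0.77. Tyrobp was singled out after its values were seen. The 3 smallest p-values at month 12 were those of Ms4a7, a membrane protein of the MS4A family (2.42, SE 0.31, adjusted p = 7.7e-08), Blnk, an adaptor of SYK (1.23, SE 0.21), and Inpp5d, the lipid phosphatase SHIP1 (0.93, SE 0.16). Many of these genes serve other immune receptors too, and Treml1 did not have enough counts to be tested.

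**Figure D4:**
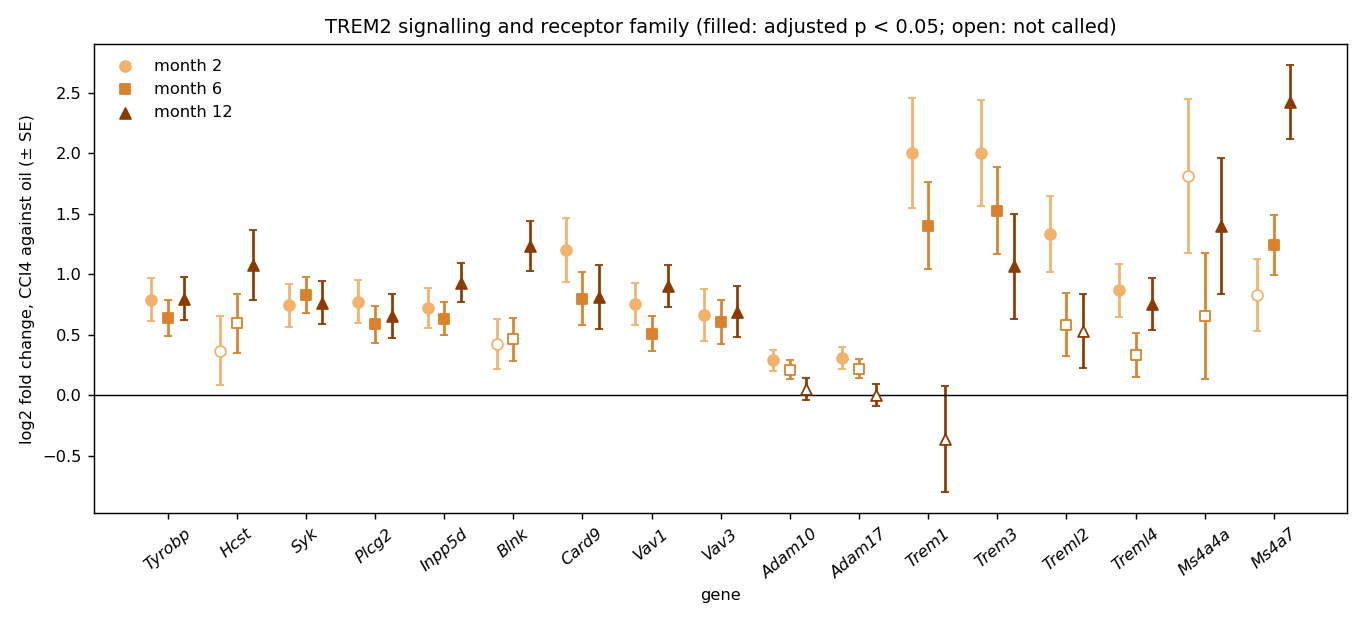
Log2 fold change of CCl4 against oil (points, with SE bars) for 17 genes of TREM2 signalling and the TREM family at month 2 (circles), month 6 (squares) and month 12 (triangles), filled where called. Tyrobp and Syk are filled at all 3 times and lie between 0.64 and 0.83, and Ms4a7 stands highest at month 12 (2.42).

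Over the 36 libraries, 8 genes followed Trem2 most closely by the root mean square difference of their centred log2 levels, among 12355 genes averaging 1 CPM or more. They were Hvcn1 (0.28), Ptpn7, Ptafr, C3ar1, Pstpip1, Ptprs, Syk and St8sia4 (0.31). Hvcn1 encodes a proton channel of phagocytes, Ptafr the receptor for platelet-activating factor and C3ar1 the receptor for complement C3a. Their log2 fold changes were 0.66 to 0.83 at month 2, 0.74 to 1.04 at month 6 and 0.45 to 0.84 at month 12. The other 9 members and predicted genes were left out of this ranking. The closest of the members were Ctsd (0.54) and Mmp12 (0.54), and 3.99% of genes lay closer to Trem2 than Ctsd did. The closest pair of members was Cx3cr1 and Lpl (0.37), followed by Cx3cr1 and Itgax (0.39). These distances include the differences between groups, and the libraries share their scaling.

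Further genes described in lipid-associated macrophages rose in part. Of 30, 12 rose and 1 fell at month 2, 12 rose at month 6, and 19 rose and 1 fell at month 12 (medians 0.31, 0.34 and 0.78). Among all genes, 7% rose and 3.38% fell at month 2, 7.71% and 3.68% at month 6, and 25.9% and 23.2% at month 12. The share that fell, 1 of 30, was near that of all genes at month 2 and below it at month 12. At month 12 the smallest p-values were those of Abcg1, a cholesterol exporter (1.21, SE 0.13), Cd36, a fatty acid and lipoprotein receptor (2.06, SE 0.23), and Il1rn, the interleukin-1 receptor antagonist (3.55, SE 0.39). Plin2, which coats lipid droplets, fell by 0.72 at month 2, and the protease Ctsl fell by 0.34 at month 12. Hepatocytes express several of these genes, among them Cd36 and Plin2.

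Of 18 binding partners and regulators of the secreted members, with the ligand of Cx3cr1 among them, 3 rose and none fell at month 2, 6 rose and 1 fell at month 6, and 9 rose and 3 fell at month 12. Of all genes, 7% rose and 3.38% fell at month 2, and 7.71% rose and 3.68% fell at month 6. All genes also moved most at month 12, when 25.9% rose and 23.2% fell. Apoc2, the activator of lipoprotein lipase, rose by 2.26 (SE 0.22), Itgb5, an integrin chain that binds osteopontin, by 0.70 (SE 0.09), and Cx3cl1, the ligand of the Cx3cr1 receptor, by 2.50 (SE 0.31, adjusted p = 7.07e-08). Cx3cl1 was at 0.336, 0.678 and 1.94 CPM in month 12 oil and 4.20, 4.87 and 5.52 CPM in month 12 CCl4, with no overlap. Apoc3, an inhibitor of the lipase, fell by 0.81, Apoa5, which promotes its action, by 0.91, and Lmf1, which matures it, by 0.34.

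The families of Ctsd and of Cd9 and Cd63, lysosomal genes and tetraspanins, held genes called in both directions. Of 27 lysosomal genes 8 rose and 1 (Atp6v1h, -0.27) fell at month 2, 5 rose at month 6, and 14 rose and 5 fell at month 12 (median 0.28). Among all genes, 7% rose and 3.38% fell at month 2, 7.71% and 3.68% at month 6, and 25.9% and 23.2% at month 12. The share of lysosomal genes that fell at month 12, 5 of 27, lies below that of all genes. Ctsa (0.53), Hexa (0.93) and Ctsz (0.75) had the smallest p-values at month 12, and Lamp2 (-0.73), Ctsh (-0.42), Scarb2 (-0.36), Ctsl (-0.34) and Atp6v0d1 (-0.21) fell. Of 15 other tetraspanins 3 rose at month 2, 1 rose and 1 (Tspan33, -0.75) fell at month 6, and 8 rose and 2 (Tspan31, -0.37, and Tspan33, -0.80) fell at month 12 (median 0.30). The 1 of 15 that rose at month 6 is near the share of all genes. The 2 of 15 that fell at month 12 are below that share. Tspan15 (1.36), Tspan8 (5.06) and Cd151 (0.49) led that list. The rise of Cd63 at month 12 was larger than that of 14 of these 15 and smaller than that of Tspan8.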

How the data were processed

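Whole-liver RNA of 36 mice in 6 groups of 6 was sequenced from ribosomal-RNA-depleted, stranded total RNA libraries, per the labels' protocols. The authors deposited raw read counts by gene symbol and library, as whole numbers. Biojupies, the build mm10, limma 3.44.3 and edgeR 3.30.3 are named per the labels' protocols and the submitters' processing notes. The annotation and strand setting used for counting are not given in the sources used here.

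Genes were filtered with filterByExpr, scaled by TMM (factors 0.757 to 1.33) and tested in edgeR 4.0.16 (R 4.3.3) by quasi-likelihood, in a single fit with a coefficient per group and Benjamini-Hochberg adjustment over 15338 genes per comparison. Relative levels use log2(CPM + 0.5) and exact permutation, adjusted over the 30 tests or, added after the data were seen, over all genes. The edgeR test was checked on simulated counts for the month 12 comparison only, with as many genes raised as lowered. The permutation test was not part of that check. Positions come from GENCODE vM21 on mm10 and promoters from RefSeq. Members, lists and comparisons were chosen with earlier results of these data known. Named are all members, the 8 genes most like Trem2, per partner list the 3 called genes with the smallest p at month 12 and those called against the list median, and any pan-macrophage or Kupffer marker.

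Same-numbered mice of different groups did not deviate together (correlation -0.565 to 0.523 over 90 pairs, median -0.033), so numbers were not used as pairs. No 2 libraries of a group were copies (lowest chi-square per degree of freedom 22.9). Alternatives were RLE factors, library totals, other filters, the replicate block, DESeq2 1.42.0, limma-voom 3.58.1, compared groups only, other references, and leaving out libraries singly or 4 together.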

Additional observations from a re-analysis of the deposited data

Results flagged for a closer look

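Of 60 sets of 6 values (10 genes in 6 groups), 8 had an extreme mouse far from the rest. The rule flags about 1 in 20 sets of independent, normally distributed values. These sets share their libraries, and most of the flags fall on 1 library, so the 2 rates cannot be compared. In month 6 CCl4, replicate 2 was far above the other 5 mice for Cd9 (41.3 CPM, next 26.2), Cd63 (32, next 16.5), Spp1 (277.9, next 90.4), Lpl (135.9, next 94.1) and Mmp12 (63.4, next 33.2). The same library had the highest sums of that group for monocyte markers without Fn1 (178 CPM) and mesothelial markers without Krt8 (97.8 CPM), whose part in these values was not tested. In month 12 oil, replicate 2 stood out for Cd63 (12.7 CPM, next 6.72) and replicate 5 for Ctsd (410.9 CPM, next 373.0). In month 12 CCl4, replicate 6 stood out for Lpl (370.8 CPM, next 198.5).

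The effect of CCl4 differed between month 12 and month 2, by edgeR's interaction test, for 6 members, each larger at month 12, where 11.2% of all genes were called higher. The differences in log2 fold change were 1.52 for Cd9, 1.91 for Cd63, 2.33 for Spp1, 1.32 for Lpl, 0.99 for Itgax and 0.99 for Cx3cr1. Itgax was not called in 15 of 24 fits that left out 1 library, with the replicate block, with no filter on low counts or by limma-voom, nor Cx3cr1 in 4 of 24 fits or by limma-voom.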

How the results depend on the processing

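No count of called members moved by more than 1.5 times under any alternative run. Leaving out 1 library gave 7 at month 2, 8 to 9 at month 6, 9 to 10 at month 12, 4 to 6 for the interaction, 5 to 6 from month 6 to 12 of CCl4 and 6 to 8 from month 0 to month 2 oil. With the replicate block the counts were 7, 9, 10, 5, 6 and 7, and the block ended only the Itgax interaction among the members' calls. Signs turned only for differences that were not called. With library totals alone these were the interactions of Trem2 (0.022) and Mmp12 (0.057) and Ctsd from month 6 to 12 (0.13). When 1 library was left out, the Gpnmb interaction ran from -0.052 to 0.49, Ctsd from month 6 to 12 from -0.091 to 0.13, and Ctsd from month 0 to month 2 oil from -0.011 to 0.073. Relative to Adgre1 alone, Cd9 was at -0.059 at month 2 and -0.052 at month 6, and Ctsd at -0.018 at month 6. Library totals alone called 3160 genes higher and 179 lower at month 2 (1073 and 518 with TMM), 8884 and 177 at month 6 (1182 and 564), and 10331 and 592 at month 12 (3975 and 3561). Cx3cr1, Itgax and Gpnmb had the fewest counts per library, down to 7 for Gpnmb at month 0.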
